A study of Rattus norvegicus with 15 samples.

Results

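Genes of chromosome segregation and cell division were followed in rat H9c2 cells exposed to doxorubicin. They were chosen by symbol from a list of 50 kinetochore, spindle checkpoint, condensin and cytokinesis genes with their kinases and transcription factors. Of the 50, 49 were found in the table and Nek2 was not matched. All 49 were at 1 FPKM (fragments per kilobase of transcript, scaled to the mapped total) or more in all 15 libraries, so none was lost to the filter that left 11288 entries for testing. The rule takes genes by name, although the list was drawn up with earlier results of these data known.

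In mitosis the kinetochore forms on the centromere and ties each chromosome to spindle microtubules. Its inner layer holds the centromeric histone CENP-A and the CENP proteins around it, and its outer layer holds the NDC80 complex, which grips the microtubule. The spindle checkpoint delays anaphase by holding back CDC20 until every kinetochore is attached, after which the anaphase promoting complex marks securin for destruction and separase cuts cohesin. Condensin compacts the chromosomes, and anillin, PRC1 and the centralspindlin pathway build and close the cleavage furrow. H9c2 is an established myoblast line from embryonic rat heart that divides in culture, while adult heart muscle cells rarely divide.

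Each of the 5 groups had 3 samples. Controls (con) were given phosphate-buffered saline only. Cells of the DOX group were exposed for 24 h to 2 µM doxorubicin, a DNA-binding cancer drug that poisons topoisomerase II. In the other groups the same dose followed 4 h after an addition. The addition was 50 µL of danshen injection diluted 1 in 20 (DSI+DOX), 5 µM astaxanthin, a carotenoid (AXT+DOX), or 10 µM diosmetin, a flavone (DMT+DOX). No group received an addition alone, so what an addition does to dividing cells by itself cannot be told apart from what it does to the doxorubicin response. The labels' genotype entry reads WT in con and repeats the treatment elsewhere, and no genetic change is described. Whether the 3 samples of a group were grown apart is not in the labels, so the p-values rest on a spread between samples that may be technical.

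The labels call the cells cardiomyocytes. Of 11 matched cardiomyocyte markers, only Tnnt2, Nkx2-5 and Gata4 reached 1 FPKM in at least 3 libraries, and Myh6, Myh7, Nppa, Nppb, Tnni3, Actn2, Ryr2 and Pln stayed at or under 0.545 FPKM in every library. All 5 matched skeletal myoblast markers reached that level, as did 3 of 5 fibroblast markers (Col1a1, Col1a2 and Thy1), none of 3 endothelial and none of 4 leukocyte markers, and 1 of 3 epithelial markers (Krt8). FPKM summed to 548227 in DSI+DOX replicate 3 and to 433383 to 468608 in the others, and depth is unknown. Within the other groups, libraries correlated at 0.991 or more across genes (Pearson, log2(FPKM + 1)), whereas DSI+DOX replicate 3 reached 0.953 and 0.963 with the others of its group. It stood apart, so results that rest on it are given with and without it. Compared with the mean of DSI+DOX replicates 1 and 2, it was over 1.5 times higher for Spc24, Cenpm and Pttg1 and over 1.5 times lower for 8 members (Bub1b, Zwilch, Hmmr, Espl1, Ncapg, Smc2, Anln and Ect2). Of all tested entries, 10.3% were that much higher and 28.2% that much lower in it.

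Many genes of the division machinery carry a TTTGAA element (a form of the cell cycle genes homology region, read by the DREAM and MuvB complexes) and CCAAT boxes (read by NF-Y) near their start. The promoters of the 3 members with the largest falls in DOX and of the member with the smallest change are shown because they are the ends of the response described next. They come from RefSeq on GRCr8 (the deposited values were made on Rnor_6.0), reach from 250 bases before to 50 after the annotated start, and read 5′ to 3′ on the gene's strand. Plk1 is at chr1:186147408-186147707 (plus strand), Cenpf at chr13:103760837-103761136 (minus strand), Spc25 at chr3:74396669-74396968 (minus strand) and Mad1l1 at chr12:19434532-19434831 (plus strand). Capitals mark matches to both motifs and to TTTNNCGC, a form of the site read by E2F factors. Both strands were searched, a CCAAT on the opposite strand reads as its reverse complement, and no matches overlapped.
Plk1: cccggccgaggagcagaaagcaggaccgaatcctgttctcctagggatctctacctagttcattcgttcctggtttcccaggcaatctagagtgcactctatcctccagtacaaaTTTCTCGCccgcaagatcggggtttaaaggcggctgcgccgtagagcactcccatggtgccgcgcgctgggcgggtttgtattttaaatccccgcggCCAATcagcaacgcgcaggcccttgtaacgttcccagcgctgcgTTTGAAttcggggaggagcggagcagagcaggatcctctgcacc
Cenpf: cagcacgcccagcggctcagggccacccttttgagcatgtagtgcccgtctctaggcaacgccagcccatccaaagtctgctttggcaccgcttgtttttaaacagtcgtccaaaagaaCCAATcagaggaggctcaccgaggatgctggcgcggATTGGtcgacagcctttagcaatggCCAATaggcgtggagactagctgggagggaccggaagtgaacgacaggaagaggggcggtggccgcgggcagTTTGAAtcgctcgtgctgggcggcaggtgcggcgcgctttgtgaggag
Spc25: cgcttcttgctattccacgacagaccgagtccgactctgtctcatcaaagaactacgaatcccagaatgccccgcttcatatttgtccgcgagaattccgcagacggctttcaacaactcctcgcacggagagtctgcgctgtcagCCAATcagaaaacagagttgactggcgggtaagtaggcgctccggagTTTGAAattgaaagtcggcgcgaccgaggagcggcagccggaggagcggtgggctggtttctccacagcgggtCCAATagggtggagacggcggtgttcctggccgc
Mad1l1: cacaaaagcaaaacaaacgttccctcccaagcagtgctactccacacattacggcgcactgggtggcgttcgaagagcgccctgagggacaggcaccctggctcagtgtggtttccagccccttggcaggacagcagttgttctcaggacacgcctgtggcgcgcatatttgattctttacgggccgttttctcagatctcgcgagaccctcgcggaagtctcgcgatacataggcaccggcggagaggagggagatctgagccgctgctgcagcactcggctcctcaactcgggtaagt

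Plk1 held 1 match to each motif, Cenpf 1 TTTGAA and 3 CCAAT matches, and Spc25 1 TTTGAA and 2 CCAAT matches. The Mad1l1 window held no match to the 3 motifs. One promoter entry was matched for 41 members, and Zwilch, Aurkb, Incenp, Cenpt, Tpx2, Ube2c, Racgap1 and Foxm1 had no match. TTTGAA stood in 28 of the 41 (68.3%), against 6140 of 33469 rat promoters of the same length (18.3%). CCAAT stood in 27 (65.9%, against 37.5% of all promoters), both together in 20 (48.8% against 7.41%), and TTTNNCGC in 4 (9.76% against 4.92%). The set of all promoters was limited neither to genes with 1 entry nor to tested genes. Among 62 other genes of the same machinery with 1 promoter entry, TTTGAA stood in 37.1%, CCAAT in 45.2%, both in 21.0% and TTTNNCGC in 16.1%. Of 31 TTTGAA matches in the members, 28 lay between positions -100 and 50 from the start. How such positions fall over all promoters is not given. TTTGAA was in 17 of the 19 matched members that were 2-fold or more lower in DOX and in 11 of the other 22, while CCAAT was in 12 and 15 of them. Cdc25c and Cenpm, which rose in DOX, and Espl1, which was not called, also held TTTGAA. The uncalled Bub3 and Spc24, like Mad1l1, held none. Ncaph, Bub1, Cenph, Aurka and Mybl2 fell with no match to any of the motifs. These are counts of letters with no test, and none shows binding.

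DOX against con asks what doxorubicin did to the division genes. Of 49 members, 42 fell and 2 rose, with 5 not called. Across all 11288 entries 14.1% were called lower and 24.8% higher. The median log2 fold change of the members was -0.97, against 0.05 over all entries, and 22 members fell 2-fold or more (1.98% of all entries). All 3 DOX libraries lay below all 3 con libraries for 43 members (26.7% of all entries) and above them for 2 (35.9%). The members took 0.140% to 0.147% of the FPKM of a con library and 0.0734% to 0.0754% of a DOX library. In RNA from whole cultures, fewer dividing cells and less of these RNAs per cell cannot be told apart. The calls were the same 44 without DSI+DOX replicate 3, when 23.8% of all entries were called lower and 33.2% higher. Scaling changed the split of all entries, from 2802 higher and 1589 lower to 2098 and 2067 with a common median and to 2450 and 2299 with quantile normalization. The members split 1 higher and 42 lower with the former and 1 and 43 with the latter. Summed cell type markers moved with the same contrast. The cardiomyocyte list went from 204 to 222 FPKM in con to 84.7 to 101 in DOX, through Tnnt2 (mean 204 to 81.2 FPKM). Its other expressed markers had higher means in DOX (Nkx2-5 5.16 to 6.77 and Gata4 3.81 to 4.62 FPKM), and Myh6, Actn2 and Ryr2 were at or near 0 in all libraries. The skeletal myoblast list summed to 174 to 183 FPKM in con and 65.9 to 71.3 in DOX. Its means were 93.9 and 2.38 FPKM for Myog, 59.2 and 39.1 for Cdh15 and 5.76 and 5.41 for Des, while Myod1 (18.1 and 19.6) and Chrna1 (0.267 and 1.44) were higher in DOX. The fibroblast list went from 4431 to 4627 FPKM to 2277 to 2692 through Col1a1 and Col1a2, with Thy1 at means of 147 and 165, and the epithelial list from 9.33 to 10.0 to 4.68 to 5.57. The endothelial list stayed at or under 0.204 FPKM and the leukocyte list at or under 0.915 in both groups. Their part in the result was not tested.

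**Figure D1:**
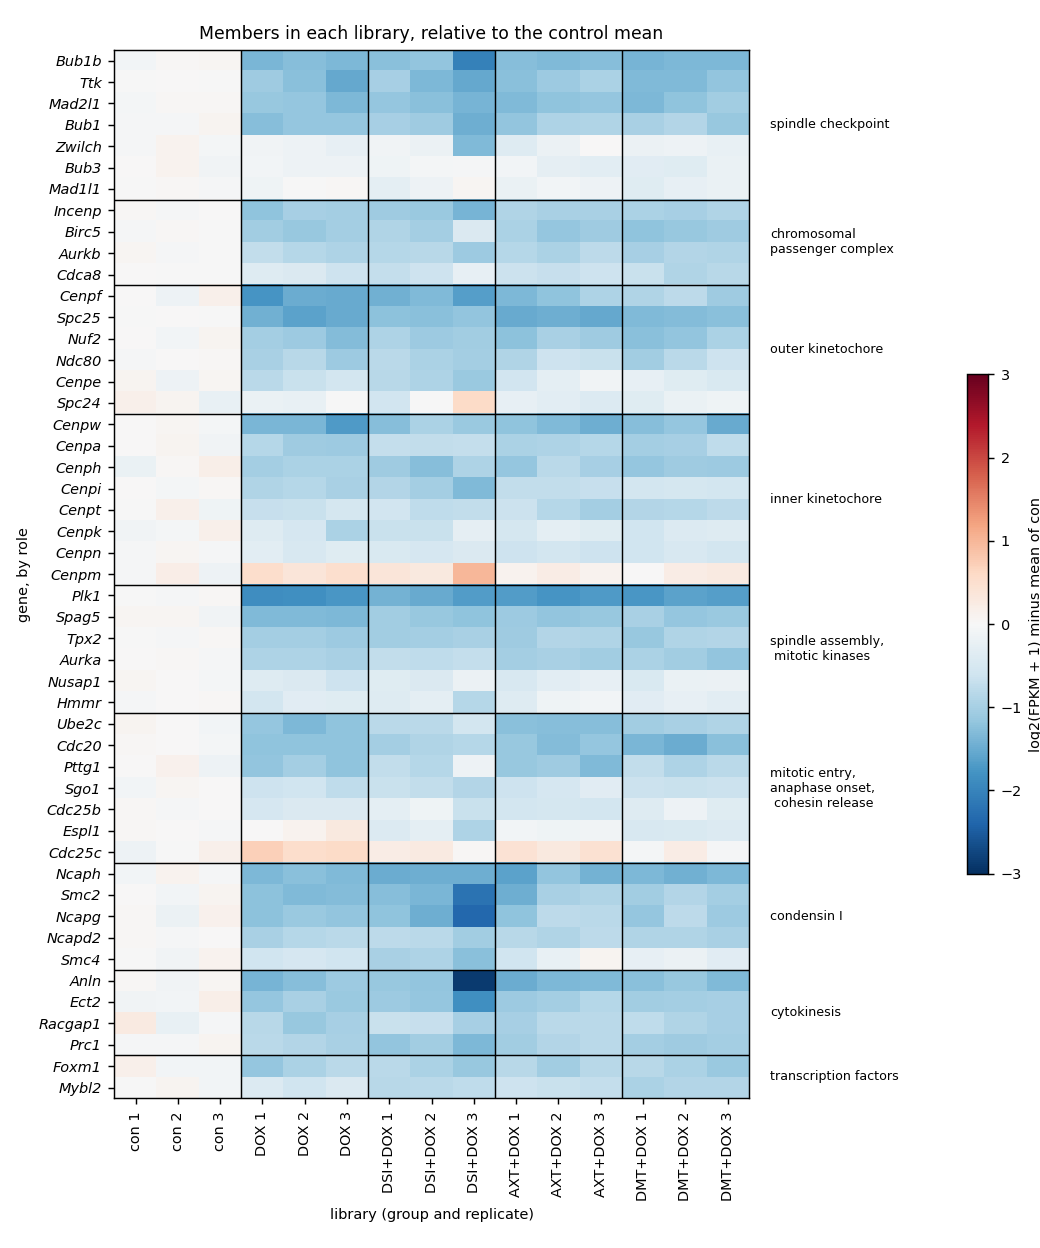
Each member (rows, by role) in each of the 15 libraries (columns), as log2(FPKM + 1) minus the con mean of that gene; blue is below and red above the con mean. All treated groups are blue for most members, Cenpm and Cdc25c are red in DOX, and DSI+DOX replicate 3 differs from its group for Anln, Ncapg and Smc2.

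In the spindle checkpoint, 4 of 7 members fell (median -1.19) and 3 were not called. Bub1b encodes BubR1, which holds CDC20 back as part of the mitotic checkpoint complex. Its level was 9.46, 10.3 and 10.5 FPKM in con and 3.30, 3.54 and 3.38 in DOX. The 3 DOX libraries lay close together and far below con, and the log2 fold change was -1.33 ± 0.16 (SE; adjusted p = 2.21e-05). The kinase genes Ttk (-1.28) and Bub1 (-1.19) and the CDC20 inhibitor gene Mad2l1 (-1.22) fell by similar amounts.

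The uncalled checkpoint genes were Mad1l1, Bub3 and Zwilch. Mad1l1 encodes the kinetochore anchor of MAD2 and stood at 7.84, 8.12 and 7.66 FPKM in con and 7.10, 7.79 and 8.08 in DOX. Bub3, the gene of the adaptor that brings BUB1 and BubR1 to kinetochores, stood at 42.2, 45.1 and 39.1 FPKM in con and 39.7, 37.5 and 37.6 in DOX. Zwilch encodes a subunit of the RZZ complex, which recruits dynein and MAD1, and stood at 9.20, 10.2 and 9.17 FPKM in con and 8.71, 8.40 and 7.82 in DOX. The groups overlapped for Mad1l1 and Bub3, and the DOX libraries were below the con libraries for Zwilch. The log2 fold changes were -0.04 ± 0.09 for Mad1l1, -0.13 ± 0.08 for Bub3 and -0.18 ± 0.23 for Zwilch (SE; adjusted p = 0.785, 0.194 and 0.591). Bub3 was called lower with quantile normalization. The ratio of Bub3 to Bub1 was 4.00 ± 0.476 in con and 9.43 ± 0.889 in DOX (SD, n = 3).

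All 4 genes of the chromosomal passenger complex, which corrects wrong attachments and guides cytokinesis, fell. Incenp, the scaffold of the complex, went from 21.6, 20.4 and 21.2 FPKM in con to 8.60, 10.0 and 9.82 in DOX. Cdca8, which encodes the targeting subunit borealin, had the smallest change of the complex, from 19.2, 18.8 and 18.7 FPKM to 14.2, 13.6 and 11.9. The groups did not overlap for either gene, and the log2 fold changes were -1.08 ± 0.09 (SE; adjusted p = 6.35e-07) and -0.48 ± 0.11 (adjusted p = 0.00314). The kinase gene Aurkb changed by -0.84 and the survivin gene Birc5 by -1.06. Within the complex the ratio of Cdca8 to Birc5 was 0.637 ± 0.0247 in con and 0.973 ± 0.116 in DOX (SD, n = 3).

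Of 6 outer kinetochore genes, 5 fell (median -1.05) and Spc24 was not called. Cenpf, the gene of a large protein of the outer kinetochore that appears in G2, had the deepest fall of the layer. It stood at 7.07, 6.18 and 7.81 FPKM in con and at 1.35, 1.83 and 1.79 in DOX. Even the lowest con library was far above the highest DOX library, and the log2 fold change was -1.59 ± 0.13 (SE; adjusted p = 5.81e-07). Spc24 and Spc25 encode the paired subunits at the inner end of the NDC80 complex. Spc25 went from 18.9, 19.1 and 18.8 FPKM to 6.31, 5.56 and 5.99 (-1.52 ± 0.07, SE; adjusted p = 1.44e-09), and Spc24 stood at 8.37, 7.93 and 6.34 in con and 6.39, 6.33 and 7.42 in DOX (-0.14 ± 0.21; adjusted p = 0.631). The groups were far apart for Spc25 and overlapped for Spc24, so that the Spc24 to Spc25 ratio was 0.398 ± 0.0549 in con and 1.13 ± 0.113 in DOX (SD, n = 3). The partner genes Nuf2 and Ndc80 changed by -1.14 and -0.97, and Cenpe, a kinetochore motor gene, by -0.68.

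In the inner kinetochore 7 of 8 genes fell and Cenpm rose. Cenpw, whose product forms a histone-fold pair with CENP-T, went from 6.88, 7.13 and 6.49 FPKM in con to 2.02, 2.03 and 1.41 in DOX. Cenpn, whose product reads the CENP-A nucleosome, had the smallest change, from 5.57, 6.00 and 5.56 FPKM to 4.40, 3.84 and 4.21. Neither gene's groups overlapped, and the log2 fold changes were -1.48 ± 0.12 (SE; adjusted p = 6.7e-07) and -0.38 ± 0.07 (adjusted p = 0.000916). Cenpa, the gene of the centromeric histone, changed by -1.0, and Cenph, Cenpi, Cenpk and Cenpt by -0.98 to -0.61.

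Cenpm, which encodes another subunit of the inner kinetochore, stood at 7.72, 9.22 and 7.07 FPKM in con and at 11.9, 10.6 and 11.7 in DOX. Every DOX library was above every con library, with a log2 fold change of 0.47 ± 0.16 (SE; adjusted p = 0.031). The call was lost with a common median (adjusted p = 0.124) and with quantile normalization (0.0699). It was also lost without con replicate 1 (0.0841), con replicate 3 (0.118), DOX replicate 1 (0.0907) or DOX replicate 3 (0.0801), and the direction held in each. Cenpi, a neighbour of Cenpm in the same subcomplex, stood at 4.96, 4.65 and 5.09 FPKM in con and 2.14, 2.27 and 2.01 in DOX. The Cenpm to Cenpi ratio thus went from 1.64 ± 0.305 to 5.36 ± 0.624 (SD, n = 3).

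All 6 genes of spindle assembly and mitotic kinases fell. Plk1, the gene of the kinase that drives mitotic entry, centrosome maturation and cytokinesis, had the largest fall of all members and ranked 16 of the 11288 entries by fall. It stood at 35.2, 34.2 and 36.3 FPKM in con and at 8.93, 9.17 and 9.85 in DOX. The libraries within a group lay close together and the DOX mean was 0.264 of the con mean (log2 fold change -1.81 ± 0.07, SE; adjusted p = 1.1e-09). Hmmr, whose product links spindle poles and microtubules, had the smallest change, from 9.90, 10.3 and 10.5 FPKM to 6.69, 7.84 and 7.75. All its DOX libraries were lower (-0.42 ± 0.13, SE; adjusted p = 0.021), and the call was lost without con replicate 2 (adjusted p = 0.0548), con replicate 3 (0.0644) or DOX replicate 1 (0.0847). Spag5, the gene of the spindle protein astrin, changed by -1.33, Tpx2, the gene of the activator of Aurora A, by -1.05, and Aurka itself by -0.94.

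Of 7 genes of mitotic entry, anaphase onset and cohesin release, 5 fell, Cdc25c rose and Espl1 was not called. Ube2c, the gene of the ubiquitin-conjugating enzyme of the anaphase promoting complex, went from 7.61, 7.19 and 6.66 FPKM in con to 2.67, 2.18 and 2.53 in DOX (-1.24 ± 0.09, SE; adjusted p = 2.08e-07). Cdc20, the gene of the co-activator of that complex, went from 18.0, 17.9 and 17.0 FPKM to 7.13, 7.12 and 7.06 (-1.20 ± 0.08; adjusted p = 5.65e-08). Both genes kept a wide gap between groups. Espl1 encodes separase, the protease that cuts cohesin, and stood at 5.99, 5.95 and 5.65 FPKM in con and 5.89, 6.33 and 7.40 in DOX (0.13 ± 0.13, SE; adjusted p = 0.466). Pttg1 encodes its inhibitor securin and went from 12, 13.2 and 10.7 FPKM to 4.71, 5.36 and 4.65 (-1.13 ± 0.15; adjusted p = 5.65e-05). The separase gene thus overlapped between groups while the securin gene did not, and the Espl1 to Pttg1 ratio was 0.492 ± 0.0386 in con and 1.34 ± 0.22 in DOX (SD, n = 3). Sgo1, the gene of the protector of centromeric cohesion, changed by -0.67.

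Cdc25c and Cdc25b encode phosphatases that activate CDK1 at the start of mitosis. Cdc25c stood at 3.57, 4.01 and 4.62 FPKM in con and at 7.24, 6.25 and 6.56 in DOX. All DOX libraries were higher, by 0.60 ± 0.11 on the log2 scale (SE; adjusted p = 0.000604). Cdc25b fell by 0.45 (adjusted p = 0.00607), and the ratio of Cdc25c to Cdc25b was 0.297 ± 0.0405 in con and 0.688 ± 0.0737 in DOX (SD, n = 3).

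All 5 condensin I genes and all 4 cytokinesis genes fell. Ncaph, the gene of the kleisin that closes the condensin ring, went from 11, 12.7 and 11.4 FPKM to 3.98, 4.31 and 4.05, and Smc4, an ATPase subunit gene, had the smallest change, from 15.7, 14.7 and 17.0 FPKM to 10.1, 10.9 and 10.2. Neither overlapped between groups (-1.31 ± 0.10, adjusted p = 2.03e-07, and -0.56 ± 0.14, adjusted p = 0.00592; SE). Smc2, whose product pairs with SMC4, changed by -1.29, and the Smc4 to Smc2 ratio was 1.43 ± 0.0299 in con and 2.64 ± 0.208 in DOX (SD, n = 3). Ncapg and Ncapd2, the genes of the HEAT-repeat subunits, changed by -1.18 and -0.88. Anln, which encodes anillin of the contractile ring, went from 24.9, 22.5 and 25.0 FPKM to 8.59, 9.31 and 10.8. Prc1, which encodes the bundler of the central spindle, went from 39.4, 39.5 and 42.6 FPKM to 22.8, 21.5 and 20.3. Both sets of libraries were apart (-1.26 ± 0.33, adjusted p = 0.00768, and -0.89 ± 0.08, adjusted p = 2.38e-06; SE). Ect2, the gene of the exchange factor that activates RhoA at the furrow, and Racgap1, of centralspindlin, changed by -1.08 and -0.99.

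Foxm1 and Mybl2 encode transcription factors of late cell cycle genes. Foxm1 went from 7.92, 6.59 and 6.49 FPKM in con to 2.54, 3.12 and 3.58 in DOX, and Mybl2 from 12.3, 13.2 and 11.7 FPKM to 9.06, 7.88 and 8.85. Both were lower in all DOX libraries (-0.97 ± 0.12, adjusted p = 3.23e-05, and -0.48 ± 0.07, adjusted p = 0.000172; SE).

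**Figure D2:**
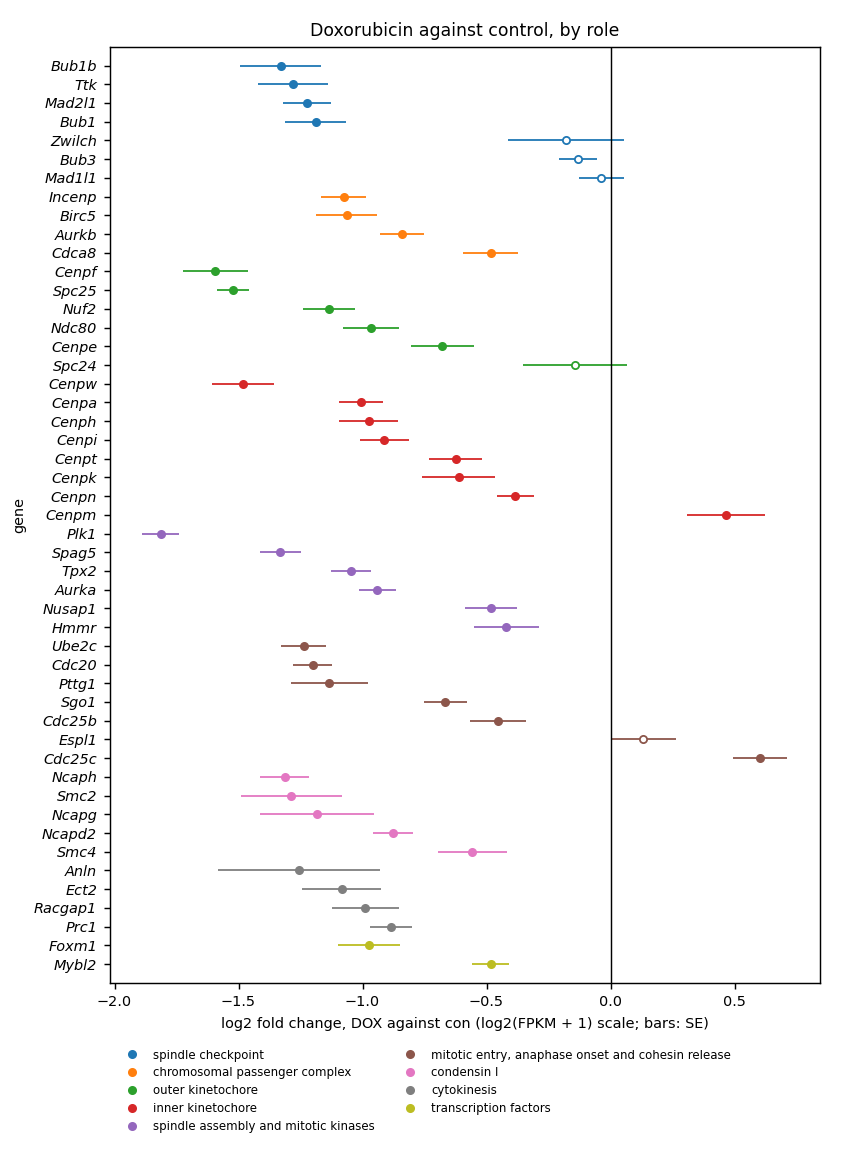
Log2 fold change of each member in DOX against con, coloured by role, with bars of 1 SE; filled points were called and open points were not. Plk1 lies farthest left at -1.81, Cdc25c farthest right at 0.60, and the 5 open points sit near 0.

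By level, the members ran from 2.91 FPKM (Sgo1) to 42.1 FPKM (Bub3) in con, with a median of 10.1, and from 1.47 FPKM to 38.3 FPKM for the same genes in DOX, with a median of 5.96. FPKM is per length, so these levels can be set side by side. The median coefficient of variation over members was 5.87% in con, 7.46% in DOX, 14% in DSI+DOX, 7.95% in AXT+DOX and 7.43% in DMT+DOX.

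Of 80 related genes of the same machinery, 75 were found and 74 tested, and in DOX against con 43 fell and 5 rose (median log2 fold change -0.44), beside the 14.1% of all entries called lower and 24.8% called higher. Without DSI+DOX replicate 3, 53 fell and 7 rose, when 23.8% of all entries were called lower and 33.2% higher. Among other kinetochore and centromere genes 20 of 25 fell and 1 rose, and all 3 condensin II genes fell. Cohesin and its regulators fell in 6 of 12 cases, while of 17 anaphase promoting complex genes 3 fell and 2 rose, shares close to or under those of all entries. Of 17 other spindle and cytokinesis genes, 11 fell and 2 rose. The largest falls were in Mki67, the gene of the proliferation marker Ki-67 (-1.58; adjusted p = 8.46e-06), Cep55, an abscission gene (-1.58; adjusted p = 2.09e-07), and Kntc1, the gene of a subunit of the RZZ complex with ZWILCH (-1.44; adjusted p = 4.79e-07). The largest rises were in Anapc16 (0.79; adjusted p = 1.36e-05) and Anapc15 (0.65; adjusted p = 0.00379), genes of small subunits of the anaphase promoting complex, and in Haus8, a gene of the augmin complex (0.73; adjusted p = 0.000474).

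Each addition was then compared with DOX alone, which asks whether the division genes differed when the addition came first. The 3 comparisons share the DOX libraries. The median log2 fold change of the members was -0.01 with DSI, 0.03 with AXT and 0.02 with DMT. Summed markers stood at other levels too. The skeletal myoblast list was at 82.8 to 87.8 FPKM in DSI+DOX, 58.2 to 68.4 in AXT+DOX and 96.5 to 98.6 in DMT+DOX. The fibroblast list was at 2233 to 2720, 2482 to 2718 and 2954 to 3105 FPKM, and the cardiomyocyte list at 112 to 208, 68.0 to 71.8 and 117 to 129 FPKM. Their part in these comparisons was not tested.

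With DSI, 5 members rose and 5 fell against DOX. Over all entries 1.47% were called higher and 6.41% lower. The 3 libraries of each group did not overlap for 9 members that were higher (5.78% of all entries) and 7 that were lower (19.5%). Those that rose were 3 genes of anaphase onset (Ube2c, Pttg1 and Cdc20), the kinetochore gene Spc25 and the kinase gene Plk1. Ube2c stood at 3.63, 3.67 and 4.59 FPKM in DSI+DOX, above all DOX libraries and below all con libraries (0.52 ± 0.09 against DOX, SE; adjusted p = 0.00435). Pttg1 stood at 6.81, 6.09 and 10.7 FPKM, with replicate 3 highest and no overlap with DOX (0.55 ± 0.15; adjusted p = 0.0447). Without replicate 3 its difference was 0.34 (adjusted p = 0.0452). Spc25 stood at 7.46, 7.40 and 7.82 FPKM (0.30 ± 0.07; adjusted p = 0.0142). Here too no library overlapped with DOX, and the same held for the 2 smaller rises. Cdc20 stood at 8.23, 8.99 and 9.32 FPKM (0.28 ± 0.08; adjusted p = 0.0447). Plk1 stood at 12.5, 11.6 and 10.4 FPKM (0.28 ± 0.07; adjusted p = 0.0406), still far below the 34.2 FPKM of the lowest con library.

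The genes that fell with DSI were of several roles. Espl1 stood at 4.20, 4.59 and 2.64 FPKM, lower than all DOX and all con libraries (-0.67 ± 0.13, SE; adjusted p = 0.00789). Cdc25c stood at 4.91, 5.07 and 4.15 FPKM (-0.43 ± 0.11; adjusted p = 0.0308), below all DOX libraries and overlapping con. Smc4 stood at 7.57, 7.88 and 6.08 FPKM (-0.49 ± 0.14; adjusted p = 0.0493), below DOX as well as con. Mybl2 stood at 6.47, 6.65 and 6.95 FPKM (-0.32 ± 0.07; adjusted p = 0.0215) and Prc1 at 17.4, 19.0 and 15.3 FPKM (-0.31 ± 0.08; adjusted p = 0.0438). These last genes were again below all libraries of both other groups.

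Several of these calls depended on libraries and scaling. Without DSI+DOX replicate 3, 7 members were called, 4 higher and 3 lower, with 2.69% of all entries called higher and 9.09% lower. Cdc20 (adjusted p = 0.0536), Smc4 (0.0785) and Prc1 (0.0602) were then lost. The count was 5 without con replicate 1, 2 or 3, and 4, 3 and 4 without DOX replicates 1, 2 and 3. It was 5 and 6 without AXT+DOX replicates 2 and 3, and 5, 5 and 6 without DMT+DOX replicates 1, 2 and 3. Calls over all entries fell too. They were 111 to 120 higher and 535 to 563 lower without a con library. Without DOX replicates 1, 2 and 3 they were 104 and 412, 68 and 315, and 90 and 492. In those fits without an AXT+DOX or DMT+DOX library they were 114 to 125 and 539 to 570. The calls of Plk1, Pttg1, Smc4 and Prc1 were each lost in 12 of the fits with 1 library left out. That of Cdc20 was lost in 13 of them. Ube2c and Espl1 remained called whichever library was left out, and neither was called in a fit of only these groups (adjusted p = 0.248 and 0.307). That fit called 0 of all entries higher and 1 lower. The median over all entries was -0.11 in DSI+DOX against DOX and moved to 0.03 with a common median, where 249 entries were higher and 210 lower in place of 166 and 723 (351 and 402 with quantile normalization). Relative to that shift the members split 7 higher and 1 lower with a common median, and 9 and 1 with quantile normalization. Cdc25c, Smc4, Prc1 and Mybl2 were no longer called under either scaling, nor Pttg1 with a common median, while Cenpa, Aurka and Spag5 were called higher under both and Cenpw with quantile normalization.

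With AXT no member was called against DOX by limma, and over all entries 0.691% were called in either direction. At an unadjusted p under 0.05 stood 6 members, against 7.85% of all entries. Without DSI+DOX replicate 3 no member was called either, with 3.3% of all entries called, and 14 had an unadjusted p under 0.05, against 18.2% of all entries. The largest difference was in Cenpf, at 2.15, 2.44 and 3.22 FPKM in AXT+DOX, above all DOX libraries (0.43 ± 0.13, SE; 95% confidence interval 0.15 to 0.72; adjusted p = 0.255). Cenpm had the most negative value, at 8.64, 9.53 and 8.64 FPKM (-0.32 ± 0.16; below all DOX libraries and overlapping con). Groups did not overlap for 4 members that were higher (7.27% of all entries) and 8 that were lower (10.3%). A missed threshold does not show that AXT left the genes as in DOX: over all members the intervals reached from -0.83 to 0.74.

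With DMT, 3 members rose and 3 fell against DOX. Over all entries 2.93% were called higher and 7.53% lower, a split of 331 and 850 that became 463 and 444 with a common median and 543 and 680 with quantile normalization. The members split 3 and 3 under both scalings. Groups did not overlap for 12 members that were higher (13.1% of all entries) and 13 that were lower (25.5%). With all 15 libraries, the called rises were in 3 of the kinetochore genes. Cenpf stood at 3.25, 3.60 and 2.80 FPKM, above all DOX and below all con libraries (0.67 ± 0.13, SE; adjusted p = 0.0053). Cenpi stood at 3.05, 3.11 and 3.02 FPKM (0.37 ± 0.10; adjusted p = 0.0258) and Spc25 at 6.95, 7.14 and 7.35 FPKM (0.23 ± 0.07; adjusted p = 0.0389). Both were likewise between DOX and con without overlap.

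The falls with DMT were in genes that DOX had raised, left uncalled or lowered. Cdc25c, raised by DOX, stood at 3.88, 4.94 and 3.92 FPKM, below DOX and overlapping con (-0.56 ± 0.11 against DOX, SE; adjusted p = 0.00511). Espl1 stood at 3.94, 4.01 and 4.13 FPKM, below all libraries of DOX and con (-0.58 ± 0.13; adjusted p = 0.0119). Mybl2 stood at 5.91, 6.31 and 6.32 FPKM (-0.42 ± 0.07; adjusted p = 0.00295), again below both. Cenpf, Cdc25c and Mybl2 remained called whichever library was left out. Leaving out DOX replicate 3 ended the Espl1 call (adjusted p = 0.0575), and Cenpi was not called without any 1 library of DOX or DMT+DOX (0.0539 to 0.0909). Spc25 was lost with both scalings and in 11 of the fits with 1 library left out, that without DOX replicate 2 (0.168) among them. Without DSI+DOX replicate 3 the count was 12, 6 in each direction, when 7.83% of all entries were called higher and 17.2% lower. It then also held Mad1l1 (adjusted p = 0.023), Cdca8 (0.00422), Cenpm (0.0244), Spag5 (0.0304), Ube2c (0.0175) and Pttg1 (0.0197), of which Spag5, Ube2c and Pttg1 were higher. Without DOX replicate 3 the count was 3, with 240 of all entries higher and 553 lower.

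**Figure D3:**
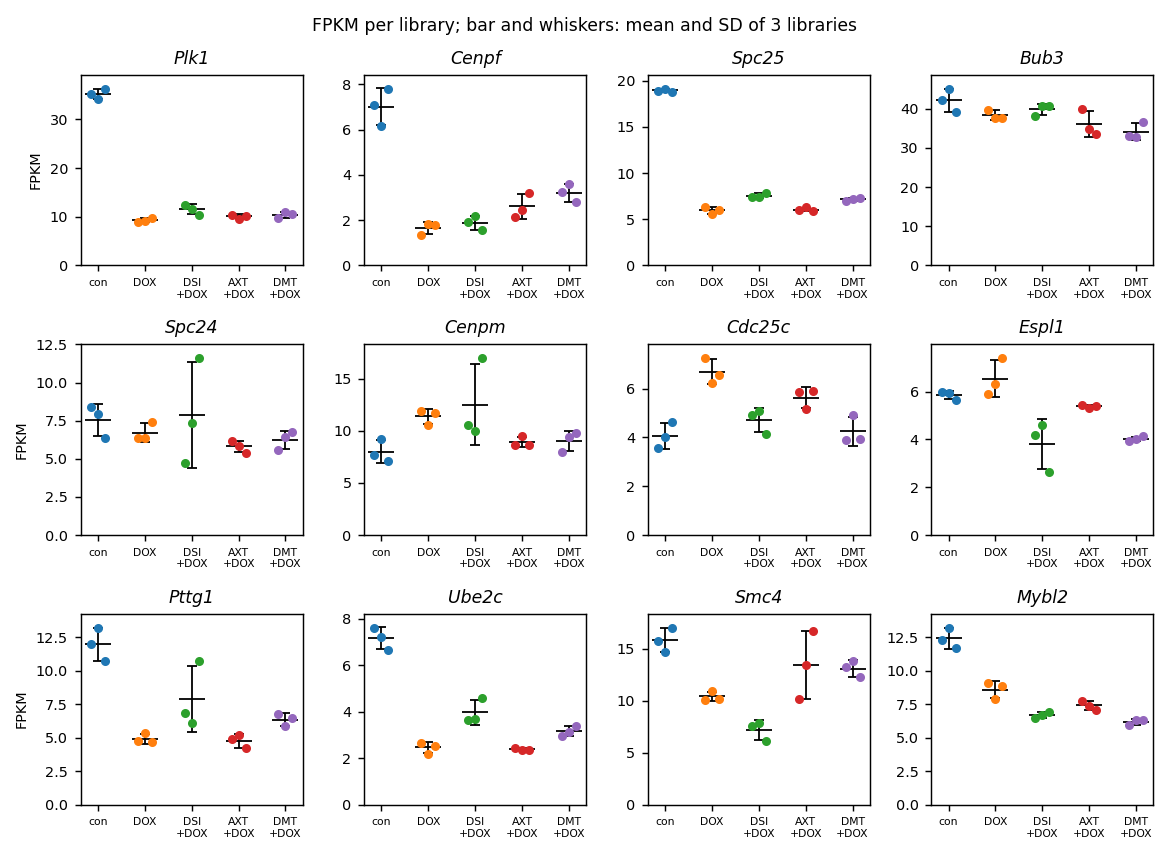
FPKM of 12 members in each library, with the mean and SD of the 3 libraries of a group; each axis starts at 0. Plk1, Cenpf and Spc25 are far lower in all treated groups than in con, while Espl1 in DSI+DOX and DMT+DOX lies below both con and DOX.

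**Figure D4:**
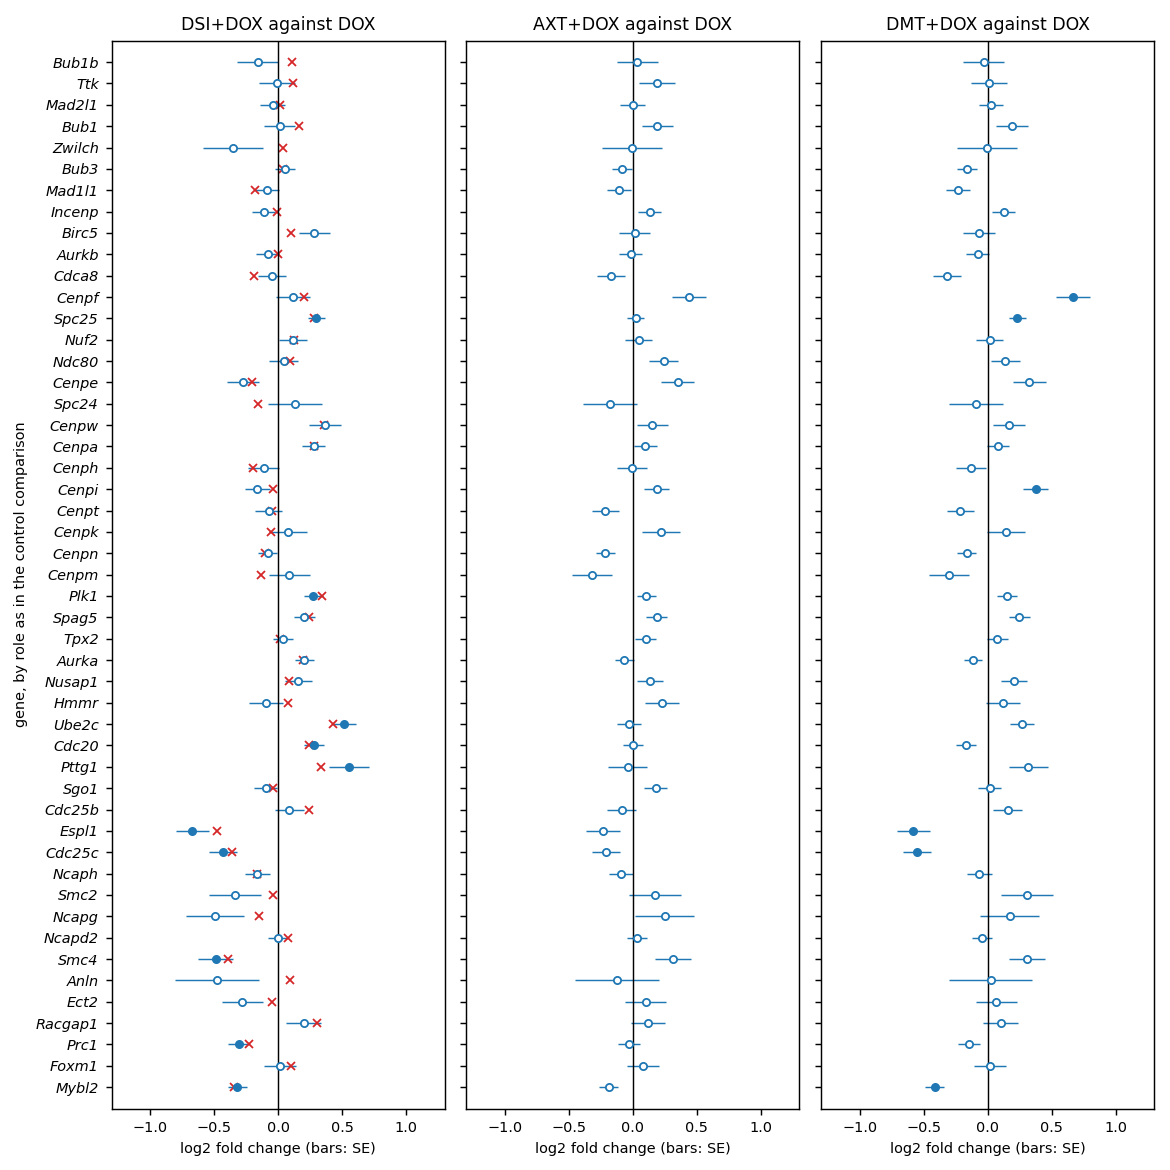
Log2 fold change of each member for each addition group against DOX, with bars of 1 SE; filled points were called, and red crosses in the DSI panel are values without DSI+DOX replicate 3. No point is filled for AXT, and Espl1, Cdc25c, Mybl2 and Spc25 are filled for both DSI and DMT.

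The ratios of partner genes also stood at different levels with the additions. Espl1 to Pttg1 was 1.34 ± 0.22 in DOX, 1.15 ± 0.131 in AXT+DOX, 0.637 ± 0.0527 in DMT+DOX and 0.539 ± 0.262 in DSI+DOX, beside 0.492 ± 0.0386 in con (SD, n = 3). All AXT+DOX libraries, at 1.03 to 1.29, were above all DMT+DOX libraries, at 0.582 to 0.687. In DSI+DOX the libraries were at 0.617, 0.754 and 0.246, with replicate 3 lowest. Cdc25c to Cdc25b was 0.688 ± 0.0737 in DOX, 0.619 ± 0.0556 in AXT+DOX, 0.453 ± 0.048 in DSI+DOX and 0.386 ± 0.0133 in DMT+DOX, beside 0.297 ± 0.0405 in con. The ratios were not tested.

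Against con, most division genes were lower in every addition group. With DSI 43 members were lower and 1 higher (all entries 21.3% lower and 20.5% higher), with AXT 39 and 1 (12.8% and 22.7%), and with DMT 40 and 0 (10.7% and 15.5%). For AXT the split of all entries, 2563 higher and 1447 lower, became 1942 and 1873 with a common median, where the members split 1 and 40. The median log2 fold changes were -0.92, -0.91 and -0.92. In DSI+DOX the largest falls were in Anln (-1.74; adjusted p = 0.00117), Ncapg (-1.68; adjusted p = 0.000101) and Smc2 (-1.62; adjusted p = 4.62e-05). Without replicate 3, at which Anln was 2.42 FPKM against 10.4 and 9.98 in the others, those values were -1.17, -1.33 and -1.33. The fall of Plk1 was then larger than these, so the order rested on replicate 3. In a fit of DSI+DOX and con alone, Anln was not called (adjusted p = 0.055). Cenpm was the member higher than con (0.56; adjusted p = 0.0137), with 10.6, 9.99 and 17.0 FPKM, and 0.33 without replicate 3 (adjusted p = 0.0184). That call was lost without con replicate 3 (adjusted p = 0.0609) and in the fit of DSI+DOX and con alone (0.124).

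In AXT+DOX the largest falls from con were in Plk1 (10.4, 9.61 and 10.2 FPKM; -1.71; adjusted p = 1.99e-09), Spc25 (5.98, 6.29 and 5.90 FPKM; -1.50; adjusted p = 1.91e-09) and Ncaph (3.16, 4.56 and 3.76 FPKM; -1.41; adjusted p = 1.28e-07). Cdc25c was higher than con, at 5.84, 5.15 and 5.90 FPKM (0.39; adjusted p = 0.0125). That call was lost without con replicate 1 (0.32; adjusted p = 0.0647). In DMT+DOX the largest falls from con were in Plk1 (9.83, 11 and 10.5 FPKM; -1.67; adjusted p = 5.27e-09), Ncaph (3.97, 3.69 and 3.97 FPKM; -1.38; adjusted p = 2.88e-07) and Cdc20 (6.21, 5.69 and 6.77 FPKM; -1.37; adjusted p = 4.32e-08). Cdc25c did not pass the test there (0.05; adjusted p = 0.802). Plk1 in both groups stayed far below the 34.2 FPKM of the lowest con library.

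The additions were also compared with each other. DSI+DOX against AXT+DOX gave 5 members higher and 3 lower (all entries 2.5% higher and 7.99% lower), and against DMT+DOX 2 higher and 3 lower (0.345% and 1.34%). Against AXT+DOX the split of all entries went from 282 higher and 902 lower to 402 and 310 with a common median and to 520 and 535 with quantile normalization, and that of the members to 7 and 2 and to 8 and 2. Against DMT+DOX all entries went from 39 and 151 to 50 and 113 and to 89 and 208, and the members stayed at 2 and 3. Smc4, Cenpe and Cenpi were lower with DSI than with either other addition. Cenpe, the gene of the motor that moves chromosomes to the spindle equator, stood at 1.97, 1.77 and 1.46 FPKM in DSI+DOX, 2.53, 3.30 and 3.89 in AXT+DOX and 3.48, 3.09 and 2.85 in DMT+DOX. Smc4 stood at 10.1, 13.5 and 16.7 FPKM in AXT+DOX and 13.2, 13.8 and 12.3 in DMT+DOX, above all DSI+DOX libraries. Aurka and Cdc20 were higher with DSI than with either other addition. Aurka, the gene of the centrosome kinase, stood at 5.39, 5.30 and 5.51 FPKM in DSI+DOX, 4.26, 4.43 and 4.21 in AXT+DOX and 4.55, 4.20 and 3.66 in DMT+DOX, without overlap. The count of calls against AXT+DOX, 8 with all libraries, was 5 without con replicate 1, 2 or 3 or DOX replicate 2, 17 and 13 without DSI+DOX replicates 1 and 2, and 2 without AXT+DOX replicate 2 or 3. Calls over all entries moved with it. They were 207 to 216 higher and 629 to 671 lower in the fits with 5 called members. Without DSI+DOX replicates 1 and 2 they were 1126 and 2924, and 347 and 1196. Without AXT+DOX replicates 2 and 3 they were 93 and 182, and 81 and 166. Against DMT+DOX the count of called members was 5 with all libraries, 3 without con replicate 1 or 3, DOX replicate 2, DSI+DOX replicate 2 or AXT+DOX replicate 2, and 11 without DSI+DOX replicate 1. It was 0, 0 and 2 without DMT+DOX replicates 1, 2 and 3. All entries gave 847 higher and 1362 lower without DSI+DOX replicate 1, and 22 to 28 and 77 to 113 in the fits with 3 called members. Without DMT+DOX replicates 1, 2 and 3 they gave 11 and 15, 10 and 18, and 19 and 28.

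Pttg1 and Ube2c were also higher with DSI than with AXT, where they stood at 4.88, 5.16 and 4.18 and at 2.42, 2.35 and 2.36 FPKM. AXT+DOX against DMT+DOX gave no called member by limma, while 4.7% of all entries were called in either direction. At an unadjusted p under 0.05 stood 7 members, against 16.6% of all entries. Leaving out DSI+DOX replicate 3, a library outside both groups that enters the shared estimate of the spread, gave 7 calls (15.9% of all entries). Cdc25c (0.34), Espl1 (0.35) and Mybl2 (0.23) were then higher with AXT, and Spc25 (-0.21), Cdc25b (-0.24), Ube2c (-0.30) and Pttg1 (-0.36) lower. With a common median the split of all entries in this pair went from 291 higher and 239 lower to 142 and 315, and to 247 and 379 with quantile normalization, with 0 and 1 members called.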

How the data were processed

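RNA was taken up in TRIzol and libraries were made with a NEBNext Ultra kit, per the labels' protocols. The authors deposited 1 FPKM value (fragments per kilobase of transcript, scaled to the mapped total) per gene and library, per the file headers. Trimmomatic, HISAT2 and featureCounts on Rnor_6.0 appear in the submitters' processing notes, and how FPKM were made from counts or scaled is not given. Between con replicates 1 and 2 the most common ratio of low values held 4 of 570 genes (0.702%), so whole reads were not recovered, depth is unknown, and no counting interval or count model was used.

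After removal of 16 exact duplicates from 19344 entries, 19328 were left (1315 without a symbol), and the 11288 at 1 FPKM or more in at least 3 of 15 libraries were tested. limma 3.58.1 (R 4.3.3) fitted group means to log2(FPKM + 1) with an intensity trend and 10 residual degrees of freedom, two-sided. Adjusted p-values are Benjamini-Hochberg values over all 11288 entries, and calls are at an adjusted p under 0.05. This scale understates the change of low genes. Reads of overlapping, antisense or near-identical genes cannot be told apart. Plots used matplotlib 3.10.9 (Python 3.11.15).

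The members and all gene lists were chosen with earlier results of these data known. Given in every library are, in DOX against con, the largest and smallest absolute change of each role, calls against the main direction and uncalled members, and in each addition against DOX all calls. Other comparisons and the related genes name up to 3 in each direction. Settings tried besides were a pseudocount of 0.1, filters at 5 FPKM or none, a common median, quantile normalization, fits of the compared groups alone, no trend, a replicate block, a 2-fold minimum, and each library left out.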

Additional observations from a re-analysis of the deposited data

Results flagged for a closer look

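The response with DSI differed from that with AXT for 8 members, by a test of the difference itself. Of all entries, 2.5% were higher and 7.99% lower in that comparison. For 5 of the 8, DSI also differed from DMT, where 0.345% of all entries were higher and 1.34% lower. Against AXT+DOX, the log2 difference of DSI+DOX was 0.60 for Pttg1 (adjusted p = 0.0293), 0.55 for Ube2c (0.00493), 0.28 for Cdc20 (0.0386), 0.28 for Spc25 (0.02) and 0.27 for Aurka (0.0348). It was -0.80 for Smc4 (adjusted p = 0.00551), -0.62 for Cenpe (0.0113) and -0.35 for Cenpi (0.0391). Against DMT+DOX it was 0.45 for Cdc20 (adjusted p = 0.0187), 0.32 for Aurka (0.0471), -0.79 for Smc4 (0.0198), -0.60 for Cenpe (0.0336) and -0.53 for Cenpi (0.0211). Without DSI+DOX replicate 3, the calls against DMT+DOX were the same 5, while against AXT+DOX Cenpi (adjusted p = 0.0746) and Cdc20 (0.0544) were lost and Plk1 and Cdc25b gained. The difference from AXT+DOX was then 0.38 for Pttg1 and -0.23 for Cenpi. Cenpi against AXT+DOX was also lost with a common median (adjusted p = 0.0761) and with quantile normalization (0.118). Of the alternative settings, 17 lost the call of Cenpi against AXT+DOX, 12 that of Cdc20 and 11 that of Aurka. Against DMT+DOX, 16 lost the call of Aurka and 11 that of Cenpe. The other calls were each lost in 1 to 5 settings. In fits of the compared groups alone, none of these calls was kept, and 0 of all entries were called in either direction.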

How the results depend on the processing

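No member changed direction under any alternative where it had been called. DOX against con called 40 to 44 members under all alternatives but a 2-fold minimum, and each library left out gave 42 to 44. With the 2-fold minimum the counts, all lower, were 22 there (1.98% of all entries lower), 21 for DSI+DOX against con (2.33%), 17 each for AXT+DOX and DMT+DOX against con (1.82% and 1.29%), and 0 for the other comparisons with calls. In fits of the compared groups alone, DSI+DOX had 0 called against DOX, AXT+DOX and DMT+DOX. All 11288 entries then gave 0 higher and 1 lower against DOX, and 0 and 0 against AXT+DOX and DMT+DOX. In such fits DMT+DOX against DOX had 11, and AXT+DOX against DMT+DOX had 3 (1 with quantile normalization). All entries gave 712 higher and 1540 lower in the former fit and 758 and 464 in the latter. Against con, fits of the compared groups alone called 35 for DSI+DOX, 42 for AXT+DOX and 46 for DMT+DOX. All entries gave 868 higher and 745 lower, 3562 and 2344, and 2816 and 2560 in that order. DSI+DOX against DMT+DOX had 3 with the filter at 5 FPKM, which left 45 members, and 3 with none. All entries gave 35 higher and 133 lower with the former and 34 and 106 with the latter. The cause was not tested.

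The replicate number as a block gave 3 called members for DSI+DOX against DOX, 4 against AXT+DOX and 0 against DMT+DOX, and 44 for DOX against con. All entries gave 99 higher and 470 lower, 187 and 548, 13 and 29, and 2621 and 1453 in that order. Deviations of same-numbered libraries correlated between -0.45 and 0.14 in the 4 main comparisons, and 0 to 4 of the 6 libraries of a comparison correlated best with their own number, so the numbers were not taken as pairs.

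Leaving out each library in turn gave 3 to 11 called for DSI+DOX against DOX, 0 to 0 for AXT+DOX against DOX and 3 to 12 for DMT+DOX against DOX. Calls over all entries moved with these counts. With DSI they were 68 higher and 315 lower at the count of 3, and 668 and 1862 at 11. With DMT they were 240 and 553 at the count of 3, and 884 and 1937 at 12. Against con, leaving out each library gave 41 to 45 for DSI+DOX, 37 to 43 for AXT+DOX and 37 to 44 for DMT+DOX. For AXT+DOX all entries gave 2094 higher and 1134 lower at the count of 37, and 3649 and 2394 at 43. DSI+DOX against AXT+DOX ran from 2 (without AXT+DOX replicate 2 or 3) to 17 (without DSI+DOX replicate 1). DSI+DOX against DMT+DOX ran from 0 (without DMT+DOX replicate 1 or 2) to 11 (without DSI+DOX replicate 1), and AXT+DOX against DMT+DOX from 0 to 7. Depth is unknown, and 3 libraries a group limit the precision.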
